A study of Mus musculus with 6 samples.

Results

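The genes described here are 9 non-collagen components of the basement membrane, chosen by name: the laminin chains Lama1, Lama5, Lamb1, Lamb2 and Lamc1, the nidogens Nid1 and Nid2, the heparan sulfate proteoglycan perlecan (Hspg2) and the collagen-binding glycoprotein Sparc. All 9 were found among the 19571 genes of the authors' gene table. RNA came from mouse E14 embryonic stem cells, a feeder-independent line grown on gelatin in serum with the cytokine LIF, and the comparison sets 3 samples of Dot1L-/- cells (Dot1l KO), made with CRISPR/Cas9, against 3 wild-type (WT) samples, all labelled day 14. Dot1l encodes the enzyme that methylates lysine 79 of histone H3. The labels do not say whether the replicates were separate cultures or clones, so the p-values measure only the spread between these samples.

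Basement membranes are thin sheets of extracellular matrix that underlie epithelia and form early in the mouse embryo, between the epiblast and the primitive endoderm. Laminins are trimers of an alpha, a beta and a gamma chain, which polymerise at the cell surface on integrin and dystroglycan receptors. Nidogens and perlecan link the laminin sheet to a second network of type IV collagen. Embryonic stem cells make laminins themselves and also adhere to them, and the extraembryonic endoderm is a strong source of the same proteins.

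None of the 9 genes passed the test between Dot1l KO and WT. In the authors' deposited table, with DESeq2 and an adjusted p under 0.05 over all genes, 0 rose and 0 fell, where 6.58% of all tested genes passed (5.34% higher and 1.25% lower). At an unadjusted p under 0.05 the count was also 0, where 16.2% of all genes fell under that value. The 9 genes lie among the abundant ones, and of the 3996 genes with a mean at or above the lowest of them 2.38% passed, 0.275% higher and 2.1% lower. Each log2 fold change (positive for higher in Dot1l KO) had a 95% interval that spanned 0, and the signs were 5 positive and 4 negative with a median of 0.12. The median over all genes was -0.02, and over genes with a mean at or above the lowest of the 9 it was -0.19.

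The table gives no values per sample, so neither single libraries nor their depth can be shown. Its columns are a mean normalized count over all libraries, a log2 fold change, the standard error (SE) of that change and a p-value; the means of all genes sum to 36042647, of which the 9 genes hold 0.247%. Group levels given here were implied from the mean and the fold change under equal group sizes, and carry no error of their own. Which genotype a positive fold change favours is not stated in the table. Positive values were taken to mean more RNA in Dot1l KO, following published reports of repression of the retrovirus MERVL by Dot1l in such cells, and every direction would turn with the other reading. Dot1l itself, the targeted gene, stood at -0.16 ± 0.25 (SE), adjusted p = 0.845, by the authors' deposited table, a level that does not settle the reading. Stem cell markers were abundant: all 16 of the fixed list had a row, with means from 5956 to 50682 normalized counts. In the authors' deposited table (DESeq2) 0 of them passed, where 6.58% of all genes did. At an unadjusted p under 0.05, 1 was higher (Tdgf1, 0.46 ± 0.23 SE) and 1 lower (Lin28a, -0.64 ± 0.29 SE), where 16.2% of all genes fell under that value. Of the 3996 genes at least as abundant as the lowest of the 9, 2.38% passed, so 0 of 16 lies near the share of abundant genes.

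**Figure D1:**
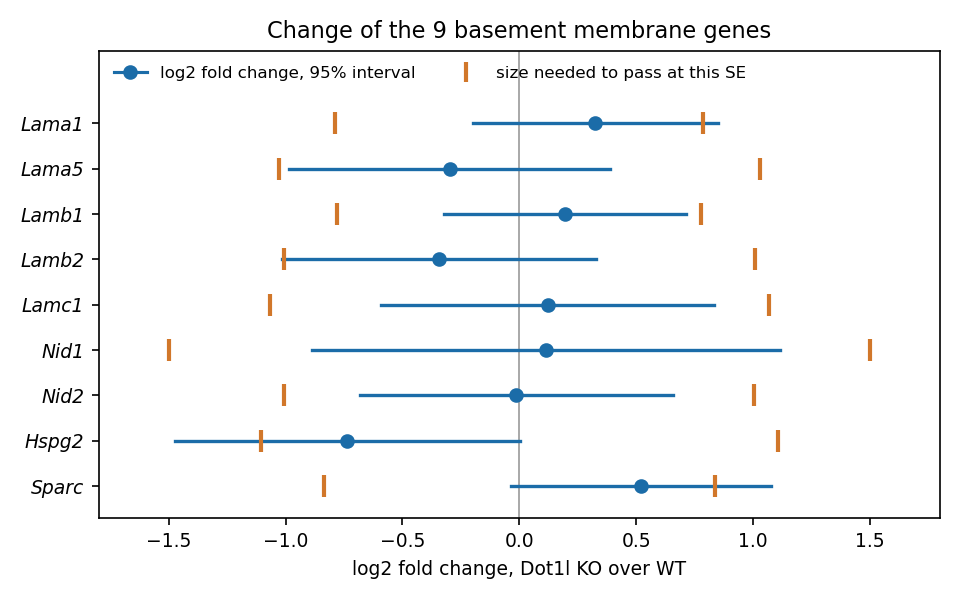
Log2 fold change of the 9 genes between Dot1l KO and WT (points) with 95% intervals (lines), from 3 samples a group; the ticks mark the size, in either direction, that would have passed given each gene's SE. All 9 intervals include 0, Hspg2 lies lowest at -0.74 and Sparc highest at 0.52.

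The alpha chains carry most of the receptor binding of a laminin. Lama1 (chromosome 17, 67697259 to 67822647 in mm10, 63 exons in its longest transcript) encodes the alpha chain of the first laminin of the embryo. Its implied level was 2871 normalized counts in WT and 3597 in Dot1l KO, and the authors' deposited table gives a log2 fold change of 0.33 ± 0.27 (SE), adjusted p = 0.629. Lama5 (chromosome 2, 180176373 to 180225859, 79 exons) encodes the alpha chain of the laminin widely used to grow pluripotent cells. With 17016 in WT and 13835 in Dot1l KO it had the opposite sign, -0.30 ± 0.35 (SE), adjusted p = 0.771, per the authors' deposited table. The 95% intervals of these genes, -0.20 to 0.85 for Lama1 and -0.99 to 0.39 for Lama5, overlap. Per kb of exon, Lama5 was 5.04 times Lama1 in WT and 3.27 times in Dot1l KO, ratios of implied levels without an error.

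The beta chains showed the same arrangement. Lamb1 (chromosome 12, 31265234 to 31329644, 33 exons), the beta chain of most embryonic laminins, was implied at 6405 normalized counts in WT and 7337 in Dot1l KO. Its log2 fold change in the authors' deposited table was 0.20 ± 0.27 (SE), adjusted p = 0.809. Lamb2 (chromosome 9, 108479736 to 108490530, 33 exons), the beta chain known from kidney and neuromuscular basement membranes, was the least abundant of the 9 genes, at 2118 in WT and 1669 in Dot1l KO. The authors' deposited table has Lamb2 at -0.34 ± 0.34 (SE), adjusted p = 0.713. Both intervals again overlap, from -0.32 to 0.72 for Lamb1 and from -1.02 to 0.33 for Lamb2.

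The gamma chain Lamc1 (chromosome 1, 153218922 to 153332786, 28 exons) is shared by nearly all laminins of the early embryo. At an implied 15080 normalized counts in WT and 16400 in Dot1l KO, its log2 fold change in the authors' deposited table was 0.12 ± 0.36 (SE), adjusted p = 0.931. Lamc1 was the most abundant of the 5 laminin chains per kb of exon, above Lama5, and Lama5 stood above Lamb1 by 1355 to 693 in means over all libraries. With the longest transcript as length, Lama5 and Lamb1 were closer, at 1355 and 1188 per kb.

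Nidogens bind the gamma chain and the collagen network. Nid2 (chromosome 14, 19751265 to 19811787, 21 exons) had the highest mean of the 9 genes, 18451 normalized counts, and nearly equal implied levels of 18529 in WT and 18374 in Dot1l KO. In the authors' deposited table Nid2 stood at -0.01 ± 0.34 (SE), adjusted p = 0.994. The 95% interval of -0.68 to 0.66 shows the changes that these samples leave possible. Centring the fold changes on all genes or on genes of like abundance turned this sign to positive. Nid1 (chromosome 13, 13437551 to 13512269, 20 exons), with 4103 in WT and 4443 in Dot1l KO, had 0.12 ± 0.51 (SE), adjusted p = 0.954, by the authors' deposited table. The SE of Nid1 was larger than that of 99.4% of genes of like abundance (its bin of 20 by mean count), and its 95% interval ran from -0.89 to 1.12. Exons of Nid2 share 437 bases with Rtraf, and those of Nid1 share 143 bases with the antisense transcript Gm48682, both on the opposite strand; how the counting treated strand is not stated, so reads of these stretches cannot be told apart.

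Perlecan and Sparc came nearest to the threshold, with opposite signs. Hspg2 (chromosome 4, 137468769 to 137570630, 97 exons) encodes perlecan, whose heparan sulfate chains hold growth factors such as FGFs. Its implied level was 18549 normalized counts in WT and 11137 in Dot1l KO, and the authors' deposited table gives -0.74 ± 0.38 (SE), p = 0.0506, adjusted p = 0.310. Sparc (chromosome 11, 55394500 to 55423183, 10 exons) encodes a glycoprotein that binds type IV collagen and is abundant in parietal endoderm. It was implied at 6802 in WT and 9756 in Dot1l KO, with 0.52 ± 0.28 (SE), p = 0.0674, adjusted p = 0.361, in the authors' deposited table. As folds, the 95% intervals ran from 0.360 to 1.00 for Hspg2 and from 0.974 to 2.11 for Sparc.

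The genes at the low and the high end of the range of log2 fold changes are Hspg2 and Sparc, and the regions before their RefSeq starts are shown for that reason. Both are 250 bases upstream of the RefSeq start in GRCm38.p6 (the assembly of mm10), written on the gene's strand, chr4:137468553-137468802 on the plus strand and chr11:55420081-55420330 on the minus strand, and capitals mark the letters GGGCGG or their complement, a core of Sp-family binding sites. GENCODE begins both genes further upstream, by 34 bases for Hspg2 and 3103 bases for Sparc, so the Sparc stretch lies within the GENCODE span of the gene given above.
Hspg2: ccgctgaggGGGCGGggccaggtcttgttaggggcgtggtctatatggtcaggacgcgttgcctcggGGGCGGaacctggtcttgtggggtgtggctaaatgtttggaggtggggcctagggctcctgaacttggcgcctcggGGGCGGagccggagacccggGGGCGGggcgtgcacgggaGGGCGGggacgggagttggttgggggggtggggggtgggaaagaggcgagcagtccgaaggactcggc
Sparc: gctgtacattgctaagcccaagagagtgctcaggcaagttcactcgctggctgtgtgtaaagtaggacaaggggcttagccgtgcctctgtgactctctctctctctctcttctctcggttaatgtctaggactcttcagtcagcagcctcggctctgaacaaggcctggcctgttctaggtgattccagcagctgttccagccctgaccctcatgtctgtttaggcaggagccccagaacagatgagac

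RefSeq's table held a promoter window of 300 bases for 6 of the 9 genes, Hspg2, Lama5, Lamb1, Lamb2, Nid1 and Sparc; Lama1, Lamc1 and Nid2 were not analysed here. Hspg2 and Lama5 had G or C at 70.3% and 72.7% of bases, Lamb1 and Nid1 at 63.7% and 64.7%, Sparc at 55.3% and Lamb2 at 44.0%, where the median over 32851 windows was 52.7%. GGGCGG, read on both strands, occurred in 4 of the 6 windows, 5 times in Hspg2 and in neither Sparc nor Lamb2, and 35.7% of all windows hold it. CCAAT occurred in Lamb1 and Nid1, where 37.4% of all windows hold it. For GATA factors, the letters AGATAA were in 0 of the 6 windows and in 11.2% of all windows, and TGATAA likewise in 0 and in 9.05%. For Sox factors, ACAAAG was in 0 and in 18.7% of all windows, and the form ACAATG in 0 and in 12.6%. The same held for the AP-1 letters TGACTCA, in 0 and in 5.20% of all windows, and for the TATA box, written TATAAA, in 0 and in 13.6%. These are matches of letters in a window and say nothing of binding.

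Levels were compared between genes per kb of annotated exon. In means over all libraries, Nid2 stood at 3566 normalized counts per kb, Sparc at 2186, Lamc1 at 1903, Lama5 at 1355, Hspg2 at 1037, Lamb1 at 693, Nid1 at 615, Lama1 at 334 and Lamb2 at 311. The table holds no spread of levels over samples, so which neighbours in this order differ was not tested; Lama1 and Lamb2 at the low end are close together. With the longest transcript as length, Lamb1 moved above Hspg2, and the other ranks did not change. Sparc was implied just below Lamc1 in WT, at 1796 against 1823 per kb, and above it in Dot1l KO, at 2575 against 1983 per kb. With the longest transcript as length, Sparc was above Lamc1 in both, at 2957 against 1978 in WT and 4242 against 2152 in Dot1l KO, where it was also above Nid2 at 3768.

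**Figure D2:**
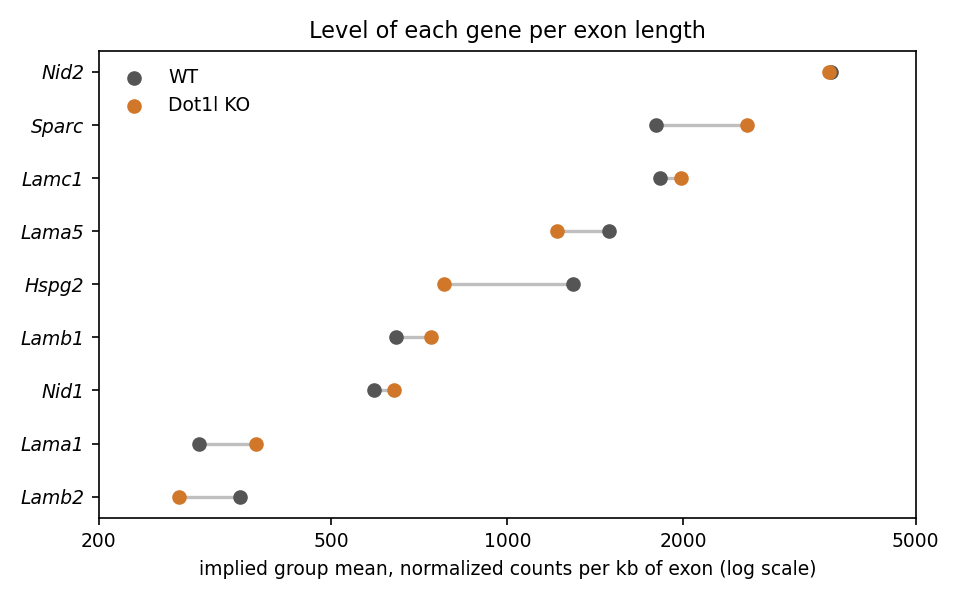
Implied mean level of each gene in WT and Dot1l KO, in normalized counts per kb of exon on a log scale; no error can be drawn because values per sample are not in the table. Nid2 is highest near 3566 in both genotypes, and Sparc and Hspg2 show the widest separation.

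The precision set what could have been called. At their own SEs, the 9 genes needed an absolute log2 fold change of at least 0.78 (Lamb1) to 1.50 (Nid1) to pass. Taken against genes of like abundance, in 20 bins of mean count, the log2 fold change of Sparc was higher than that of 99.3% of genes in its bin and that of Lama1 higher than 95.9%. Hspg2 was lower than most, with 6.13% of its bin below it. The other 6 genes lay between 32.9% (Lamb2) and 89.8% (Lamb1) of their bins. These places are descriptions of single genes. When fold changes were centred within the bins, which called 4.66% of all genes, 0 of the 9 passed, and the smallest adjusted p was 0.153, for Sparc. Centred in this way, the 95% interval of Sparc ran from 0.16 to 1.28 and left out 0. That of Lama1 ran from -0.01 to 1.04. Among the 9 genes the count of calls was also 0 with centring on the median of the table (6.63% of all genes called). It was 0 at a mean of at least 50 as well (5.55%). Other settings can only remove calls, so their count of 0 was fixed beforehand. They were an adjusted p under 0.01 (3.92%), a log2 fold change of at least 1 (6.13%) and Bonferroni adjustment (1.58%). Division of the Wald statistics by their robust spread (2.33%) likewise only removes calls.

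**Figure D3:**
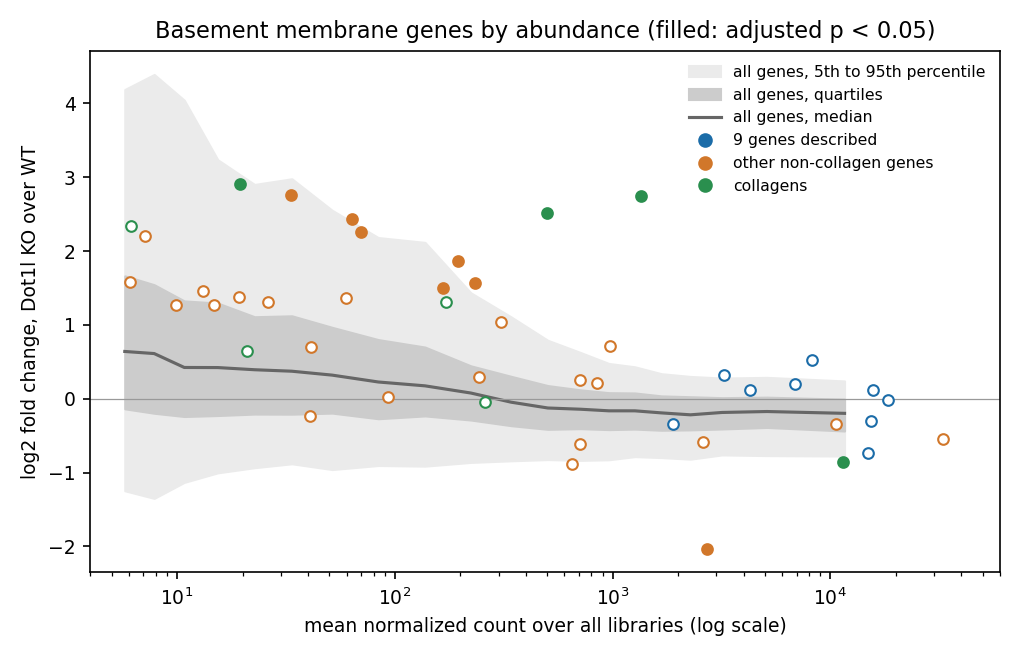
Log2 fold change against mean normalized count (log scale) for the 9 genes, other non-collagen basement membrane genes and basement membrane collagens; grey bands and line give the percentiles and median of all genes in 20 bins of mean count, and filled points passed an adjusted p under 0.05. The 9 genes lie at the abundant end, while most filled points lie among weakly expressed genes.

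Other laminin chains were weakly expressed, and several rose. Of 5 chains outside the 9 genes, 3 rose and 0 fell, where 5.34% of all genes were higher, and of those with a mean under 500, 8.62% were higher and 0.695% lower. Lama4 (chromosome 10, 38965515 to 39110188), an alpha chain of vessel and mesenchymal basement membranes, went from an implied 24.2 to 115.5 normalized counts, and the authors' deposited table gives 2.25 ± 0.42 (SE), adjusted p = 1.00e-05. Lama3 (chromosome 18, 12333819 to 12583013), the alpha chain of epithelial anchoring laminin, went from 117.6 to 349.0 with 1.57 ± 0.35 (SE), adjusted p = 0.000459, in the authors' deposited table. Lamb3 (chromosome 1, 193207699 to 193343878), its beta partner, had 1.87 ± 0.61 (SE), adjusted p = 0.0358, by the authors' deposited table, and lost the call when centred within bins of mean count. Lama2 at 1.27 ± 0.89 (SE) and Lamc3 at 1.46 ± 0.79 (SE) had means of 9.94 and 13.1 normalized counts in the authors' deposited table and did not pass.

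These 5 chains held little RNA beside those among the 9 genes. Summed per kb of exon, their implied levels were 27.1 in WT and 92.3 in Dot1l KO, against 4608 and 4583 for the 5 chains among the 9 genes, or 0.585% and 1.97% of these 10 chains together. The 95% interval of Lama4, from 1.42 to 3.08, does not overlap those of Lama1 and Lama5, and that of Lama3, from 0.88 to 2.26, lies just above the upper bound of 0.85 for Lama1. Centred within bins of mean count, the intervals of Lama3 and Lama1 overlap, with a lower bound of 0.80 and an upper bound of 1.04. The interval of Lamb3, from 0.68 to 3.05, overlaps those of Lama1 and Lamb1, and those of Lama2 and Lamc3 do as well. The difference between chains was not tested, since the genes share libraries and values per sample are not in the table.

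**Figure D4:**
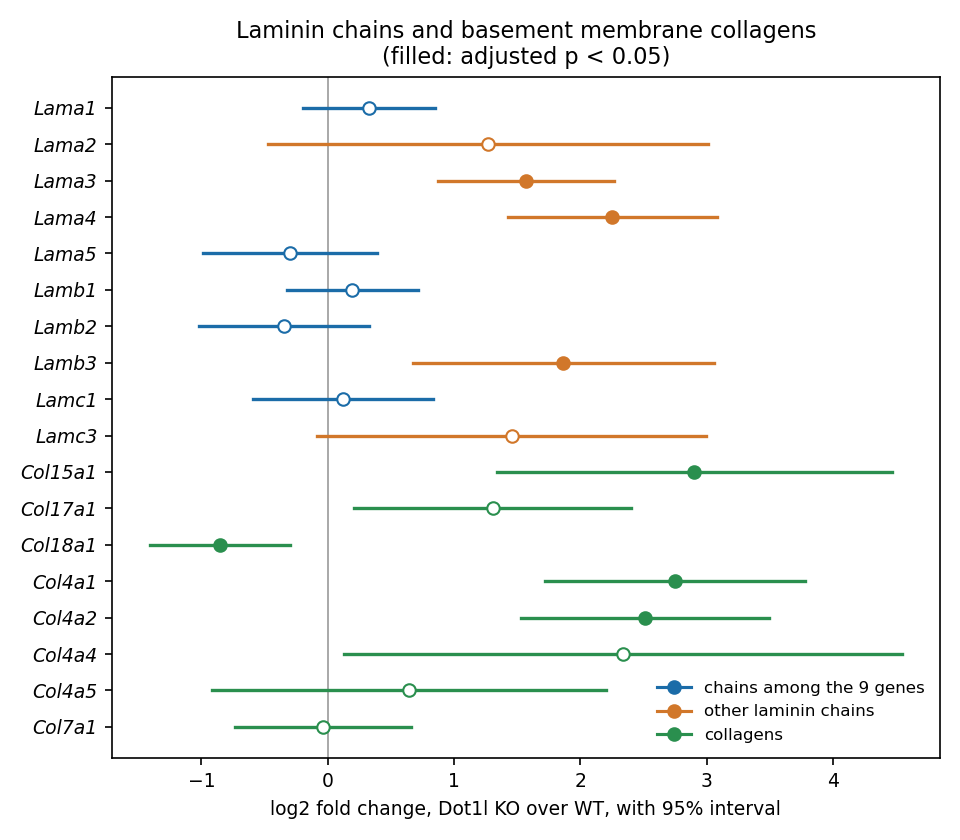
Log2 fold change with its 95% interval for 10 laminin chains and 8 basement membrane collagens, coloured by whether the chain is one of the 9 genes; filled points passed an adjusted p under 0.05. The 5 chains among the 9 genes straddle 0, while Lama3, Lama4, Lamb3, Col4a1, Col4a2 and Col15a1 lie above it and Col18a1 below.

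Of 28 other non-collagen basement membrane genes, laminin chains included, 6 rose and 1 fell. Over all genes 5.34% were higher and 1.25% lower, and of those with a mean under 500, 8.62% and 0.695%. The 28 genes had a median log2 fold change of 1.16, beside -0.02 over all genes and 0.25 over genes with a mean under 500. Their median mean count was 130.0, against 8279 for the 9 genes. Ntn1 (chromosome 11, 68209364 to 68400823), the guidance cue netrin-1 with a laminin-type domain, fell by 2.03 ± 0.29 (SE) on the log2 scale, adjusted p = 6.38e-10, by the authors' deposited table, from an implied 4340 to 1061. The rises outside the laminins were the hemicentin Hmcn1 at 2.43 ± 0.55 (SE), the proteoglycan Spock1 at 2.76 ± 0.84 (SE) and the integrin ligand nephronectin (Npnt) at 1.50 ± 0.48 (SE) in the authors' deposited table. Npnt and Spock1 lost the call when centred within bins of mean count. The most abundant members of this group did not pass: the authors' deposited table has fibronectin (Fn1) at -0.55 ± 0.34 (SE), adjusted p = 0.454, and agrin (Agrn), which clusters synaptic receptors, at -0.35 ± 0.33 (SE), adjusted p = 0.694.

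Type IV collagen forms the network that nidogens and perlecan bind, and its main chains rose. Of 8 basement membrane collagens, type IV and others, 3 rose and 1 fell, where 5.34% of all genes were higher and 1.25% lower, and the median was 1.82. Col4a1 (chromosome 8, 11198423 to 11312826) and Col4a2 (chromosome 8, 11312805 to 11449287), which share a divergent promoter and form the main type IV trimer, stood at 2.75 ± 0.52 (SE) and 2.51 ± 0.50 (SE), with adjusted p of 1.41e-05 and 4.36e-05, by the authors' deposited table. Their implied levels went from 349.5 to 2351 and from 149.3 to 851.3 normalized counts. Col15a1 rose by 2.90 ± 0.80 (SE) from a mean of only 19.4 in the authors' deposited table. Col18a1, the source of endostatin, fell by 0.85 ± 0.28 (SE), adjusted p = 0.0420, by the authors' deposited table, and lost the call when centred within bins of mean count. Per kb of exon, Col4a1 was implied at 46.8 in WT, below each of the 9 genes, and at 315.0 in Dot1l KO, between Lamb2 at 274.5 and Lama1 at 371.6. Col18a1 was implied at 2096 per kb in WT and 1160 in Dot1l KO.

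Of 22 receptor genes for laminins and other basement membrane proteins 1 rose and 1 fell, a share near that of all genes, of which 5.34% were higher and 1.25% lower. Their median was -0.15, and centred within bins of mean count 1 was higher and 2 were lower. The collagen receptor kinase Ddr2 (chromosome 1, 169972307 to 170110762) rose in the authors' deposited table by 4.16 ± 0.48 (SE), adjusted p = 2.45e-15. The integrin subunit Itgb5 (chromosome 16, 33829665 to 33949338), which pairs with the alpha-V chain to bind vitronectin, fell, with -1.31 ± 0.35 (SE) and an adjusted p of 0.00574 in the authors' deposited table. Some laminin receptors were chosen for their role after their values were seen. Of these, the authors' deposited table has Itgb1 at -0.0033 ± 0.33 (SE), Itga6 at 0.05 ± 0.37 (SE) and dystroglycan (Dag1) at -0.09 ± 0.36 (SE). Bcam, the most abundant of the 22 genes, stood at -0.83 ± 0.30 (SE), adjusted p = 0.0792, in the authors' deposited table (DESeq2). At an unadjusted p under 0.05, 3 of the 22 were higher and 4 lower, where 16.2% of all genes fell under that value.

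Enzymes that modify or cleave these proteins were read against the same shares of all genes, 5.34% higher and 1.25% lower. For counts at an unadjusted p under 0.05, the share of all genes was 16.2% in both directions together. Of 12 genes of dystroglycan glycosylation 0 rose and 0 fell by DESeq2, with 0 at an unadjusted p under 0.05, and the lowest p belonged to Pomgnt2 at -0.70 ± 0.40 (SE) and Pomk at -0.52 ± 0.35 (SE) in the authors' deposited table. Of 17 genes of folding and crosslinking 0 rose and 0 fell by DESeq2, with 1 lower at an unadjusted p under 0.05, the collagen lysyl hydroxylase Plod3, at -0.61 ± 0.31 (SE) in the authors' deposited table; its relative Plod1 had -0.60 ± 0.31 (SE) in the authors' deposited table. Among 20 genes of heparan sulfate synthesis and turnover 1 rose and 0 fell, the rise being heparanase (Hpse), which cleaves the chains of perlecan, at 2.42 ± 0.76 (SE), adjusted p = 0.0257, by the authors' deposited table. Hpse had a mean of 44.4 and lost the call when centred within bins. At an unadjusted p under 0.05, 3 of these 20 genes were higher and 2 lower. Of 24 proteases and inhibitors 0 rose and 0 fell by DESeq2, with 3 higher and 3 lower at an unadjusted p under 0.05, and the smallest p belonged to the metalloprotease Mmp23 at -1.47 ± 0.55 (SE) and the lysosomal protease Ctsd at -0.73 ± 0.29 (SE) in the authors' deposited table. Centred within bins, 0 proteases or inhibitors were higher and 1 was lower. The medians of these 4 groups, in the same order, were -0.14, -0.04, -0.16 and 0.16.

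Markers of other cell types that make basement membrane were measured beside these groups. Of 18 extraembryonic endoderm markers 7 rose and 1 fell, with a median of 1.13, where 5.34% of all genes were higher and 1.25% lower, and 8.62% and 0.695% of those with a mean under 500. Their means ran from 15.7 to 1759 normalized counts; Foxa2, Thbd, Ttr and Afp were not analysed here. The 4 with the smallest p were the endocytic adaptor Dab2 at 2.75 ± 0.43 (SE), the receptor Cubn at 3.73 ± 0.61 (SE), the growth factor receptor Pdgfra at 2.18 ± 0.43 (SE) and the lineage factor Gata6 at 2.81 ± 0.68 (SE), in the authors' deposited table. The fall was Rhox5, a homeobox gene of the X chromosome, at -1.76 ± 0.50 (SE) in the authors' deposited table, and it held the highest mean of the list. Summed over the list, the implied level was 5267 in WT and 5709 in Dot1l KO, and without Rhox5 the other 17 went from 2550 to 4908. Sox7 and Sox17, counted among the rises, lost the call when centred within bins of mean count. Of 10 fibroblast markers 5 rose and 0 fell, led by Col1a2, Thy1, Col1a1 and Col5a1, with an implied sum of 10547 in WT and 9781 in Dot1l KO. Vimentin (Vim) holds most of that sum, at -0.48 ± 0.25 (SE) in the authors' deposited table, and without it the other 9 went from 1647 to 3399. Col3a1, also among the rises, lost its call within bins, where 4 fibroblast markers were higher and 1 lower. Acta2, 1 of 3 with a negative sign, stood at -2.25 ± 0.84 (SE), adjusted p = 0.0926, in the authors' deposited table (DESeq2). Dcn, Lum, Postn, Twist2, Prrx1, S100a4 and Fap were not analysed here. Of 11 endothelial markers 1 rose and 0 fell, with implied sums of 5290 and 5900. The rise was Kdr, with a mean of 26.3 normalized counts, and 1 of 11 lies near the 8.62% of genes with a mean under 500. Within bins Kdr lost its call and 1 endothelial marker was lower. Sox18 had the lowest log2 fold change of this list, -1.57 ± 0.58 (SE), adjusted p = 0.0824, in the authors' deposited table (DESeq2). Without Pecam1, the most abundant, the other 10 went from 2433 to 2254. Emcn was not analysed here. Of 11 trophoblast markers 2 rose (Elf5 and Krt8) and 0 fell, with sums of 4097 and 4579, and without Tfap2c from 1538 to 2773. Elf5 had a mean of only 14.7 normalized counts and Krt8 of 752.7. Tpbpa and Prl3d1 were not analysed here. Sums without the most abundant gene were added after the data were seen. The rises in the endoderm list had means from 24.0 to 162.7 normalized counts and those in the fibroblast list from 16.1 to 799.1, whereas the 9 genes had means from 1894 to 18451. The part of other cell types in the rises of Lama3, Lama4, Col4a1 and Col4a2 was not tested, and in bulk RNA fewer cells of a type and less RNA per cell cannot be told apart.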

How the data were processed

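RNA from 3 Dot1l KO and 3 WT samples of E14 embryonic stem cells was sequenced. Per the submitters' processing notes, reads were aligned with HISAT2 2.1.0 to mm10, counted with featureCounts 2.0.0 and compared with DESeq2, with its version, filters and formula not given in the sources used here. The deposited gene table is the authors' own comparison, with no values per sample. Per the file headers, the signal is a mean over libraries of counts divided by size factors, the change is on the log2 scale with an SE, and the score is the Wald statistic. The deposited p-value is the Wald p with its Benjamini-Hochberg adjustment; 7 of 19571 genes have none. The score equalled the fold change divided by its SE, and recomputing the adjustment gave the same values. Library depths are unknown, so no counting interval was computed.

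The planned edgeR fit needs counts per sample, so the authors' test was used as deposited, at an adjusted p under 0.05. Intervals are the fold change ± 1.96 SE. The members and lists were chosen with earlier results of these data known. Genes named from each list are all that passed, up to 6 by smallest p (4 for markers), or else the 2 smallest. Named outside this rule were Lamb3, Lama2, Lamc3, Fn1, Agrn, Itgb1, Itga6, Dag1, Bcam, Vim, Pecam1 and Tfap2c. So were Rhox5, Sox7, Sox17, Col3a1, Acta2 and Sox18. The values of 2 list members are not reported here, and list counts leave them out. Gene models are GENCODE M21 (GRCm38), matched by symbol; level per kb uses the union of exons. Recomputed calls were tested on simulated data, with Python 3.11.15, pandas 2.3.3 and scipy 1.17.1. Tables of transposable elements carry no coordinates and were not used here.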

Additional observations from a re-analysis of the deposited data

How the results depend on the processing

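Of the 9 genes 0 passed in either direction with fold changes centred on the table or in 20 abundance bins. The same held at a mean of at least 50. Other settings could only remove calls, so the count of 0 was fixed beforehand there. These were an adjusted p under 0.01, a log2 fold change of at least 1 and Bonferroni adjustment. Division of the Wald statistics by their robust spread (1.30) was another. Over centring and the robust spread, adjusted p ran from 0.153 to 1.00. Of 27 recomputed values 25 kept their sign. Division by the robust spread leaves each fold change as it is, so a sign could turn only with centring. Nid2 turned to 0.0072 when centred on the table and to 0.19 within bins.

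The 7 other lists held 28, 8, 22, 12, 20, 17 and 24 genes, with Pxdn in both the non-collagen and the folding list. Together 11 were higher and 3 lower, where 5.34% of all genes were higher and 1.25% lower. Among genes with a mean under 500 the shares were 8.62% and 0.695%. The list counts were 4 and 1 with Bonferroni adjustment and 6 and 1 with the robust spread. At 0.01 and within bins 7 were higher, with 2 and 4 lower. Of all genes 6.58% were called in the main comparison, 1.58% with Bonferroni adjustment and 2.33% with the robust spread. The share was 3.92% at 0.01, 4.66% within bins and 6.13% at a fold change of at least 1. Over genes with a mean of at least 50 it was 5.55%. The 5 marker lists held 16, 18, 10, 11 and 11 genes, with 15 higher and 1 lower. Of these markers 5 were higher with Bonferroni adjustment, 5 with the robust spread and 8 at a mean of at least 50. Genes with a mean under 50 could not be called at that last setting, and 0 of the other list genes lost the call there. Lower markers numbered 0 under an adjusted p under 0.01, Bonferroni adjustment and the robust spread, and 3 within bins. Of the 30 list genes called, 9 lost the call within bins, 11 at 0.01 and 20 with Bonferroni adjustment. With the robust spread 18 lost it, and 2 at a fold change of at least 1. Apart from centring within bins, these settings can only remove calls. Signs could reverse only with centring, and 0 did. In the 150 bases at the downstream end of the promoter window, which runs 50 bases past the start, CCAAT occurred in 1 of the 6 promoters.

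No paired analysis was possible because the table holds no values per sample; leaving out a replicate, edgeR and a fit without the low-count filter were not run for the same reason, and elements near the genes were not placed for lack of coordinates. Unknown depth limits the levels, and the SEs limit the size of change the test calls.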
